A study of Ambystoma mexicanum with 8 samples.

Results

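DNA replication genes were followed across the blood, immune and skin cells of axolotl limbs in single-cell RNA counts. A list of 33 genes of the replication machinery, from origin loading to nucleotide supply, was looked up by symbol among 61014 gene models. By symbol, 32 of the 33 were found, in 46 gene models; PCNA was found only under the symbol PCNA.L and is given beside the list, not within it. The cells came from limbs of wild-type axolotls (Ambystoma mexicanum), a salamander that regrows lost limbs. Samples are titled contra (n = 4, numbers 1, 2, 4 and 5) or intact (n = 3, numbers 1, 2 and 4), and intact number 5 was not analysed here. The design text speaks of systemically activated limbs, sampled 14 days after amputation, and of homeostatic limbs, read here as the contra and the intact samples. All 7 were sorted for live cells of 2C DNA content, the content of a cell that has not yet replicated its DNA. The protocol calls these cells non-dividing and the design text calls them dividing. Animal age and the number of animals per sample are not stated, so p-values measure only the spread between these samples, which may be technical.

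Replication starts at origins, where ORC1 and CDC6 load the ring of MCM2 to MCM7 that later unwinds the DNA, and geminin (GMNN) blocks a repeat of that loading. CDC45, the GINS complex and MCM10 turn the ring into an active helicase; primase and the polymerases then copy both strands, the clamp PCNA and its loader keep them on the DNA, and FEN1 and LIG1 join the pieces. In most animals these transcripts are made in late G1 and S phase under E2F factors, so cells that have left the cycle hold few of them; nucleated red cells of salamanders, unlike those of mammals, can still divide in the blood.

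After 439 of 35013 cells (1.25%) were removed as doublets, 34574 remained, between 4333 and 5675 per sample, holding between 96526090 and 131397510 UMIs (counted transcript molecules) in each sample. Cells were classed by counts of marker genes: 13225 as erythroid, 6688 as epidermal, 9699 as T and 1807 as B cells, while 3155 met no class or more than 1. Median depth was 27864 UMIs in erythroid cells, of which haemoglobin took 78.2%, leaving 5674, and 21449, 12246 and 12160 UMIs in epidermal, T and B cells. Haemoglobin UMIs also made up 0.290% of the UMIs of the median epidermal cell, 0.657% of the median T cell and 0.728% of the median B cell. KRT5, an epidermal keratin, had a UMI in 57.1% of erythroid cells, so every class holds some UMIs of markers of another. Whether these UMIs came from free RNA, and the part of free RNA in the values below, was not tested. Some gate markers differed widely between classes, a difference that the gates themselves helped to set. CD3E was seen in 96.5% of T cells and 4.43% of erythroid cells, and CD79B in 99.6% of B cells and 1.65% of T cells. SLC4A1 was seen in 98.4% of erythroid and 4.96% of T cells, and EPCAM in 99.8% of epidermal and 8.24% of T cells. Other gate markers did not separate the classes. BCL11B, a T marker, was seen in 64.5% of T and 61.8% of epidermal cells. CD22, a B marker, was seen in 36.6% of B and 53.8% of epidermal cells, and KRT14 in only 0.46% of epidermal cells. Of the cell barcodes, 118 occurred in more than 1 sample (236 cells). Epidermal cells were unevenly recovered, with 249, 826, 1464 and 2486 in contra 1, 2, 4 and 5 and 188, 136 and 1339 in intact 1, 2 and 4.

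Levels are given as UMIs per 1000000 non-haemoglobin UMIs (CPM below), from counts summed over the cells of a class in a sample, with the mean and SD over all 7 samples. The scale matters for erythroid cells, because haemoglobin fills most of their libraries. On the non-haemoglobin scale 25 of the 32 members had their highest mean in erythroid cells, whereas per 1000000 of all UMIs 0 did and 25 were lowest there. T cells then held the highest mean of 30 members. Taking each sample by itself, 29 members were lower in epidermal than in T cells in all 7 samples and 26 were higher in T than in B cells in all 7. Both counts were the same on either scale. Between these classes the scales hardly differ, because haemoglobin took only 0.290% to 0.728% of the UMIs of their median cells. Per 100 cells, with no correction for depth, T cells held the most UMIs of 18 members, epidermal cells of 11 and erythroid cells of 3. In bulk sums like these, fewer expressing cells and less RNA per cell cannot be told apart.

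**Figure D1:**
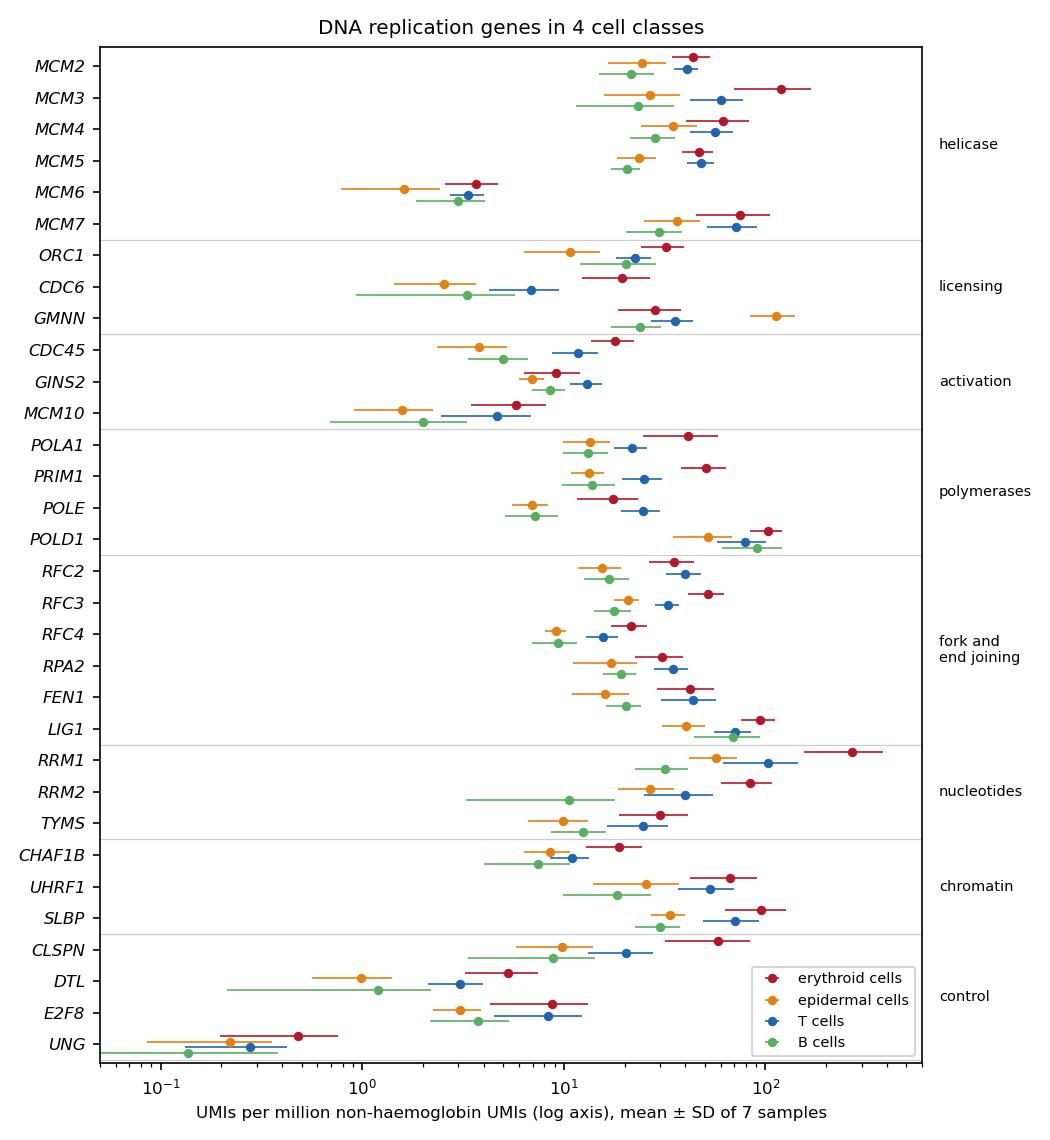
Mean level of each replication gene in 4 cell classes, in UMIs per 1000000 non-haemoglobin UMIs on a log axis, points and bars giving the mean and SD over 7 samples (a lower bar that would reach 0 is cut short). Erythroid points lie to the right for 25 of 32 genes, an order that reverses per 1000000 of all UMIs, while GMNN is highest in epidermal cells (112) on both scales.

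Differences between classes were tested within samples by edgeR's quasi-likelihood test on the summed counts with trimmed-mean (TMM) scaling, two-sided, with Benjamini-Hochberg adjustment over 23809 genes; differences below are log2 values on that scale, and a member was called at an adjusted p under 0.05. UNG had 127 UMIs in all cells and was not tested, leaving 31. Relative to T cells, 19 members were higher in erythroid cells and 2 lower, against 31.9% and 30.2% of all genes, with a median difference of 0.50 over the members and 0.06 over all genes. Relative to epidermal cells, 29 were higher and 1 lower in erythroid cells (34.0% and 35.5% of all genes; medians 1.11 and 0.05), and relative to B cells 27 were higher and 0 lower (24.1% and 26.6%; medians 1.17 and -0.04). With no scaling factors, so per 1000000 of all UMIs, these directions turned: 0 members were higher and 31 lower in erythroid than in T cells, where the median of all genes moved to -2.14 and that of the members to -1.70; 3 were higher and 23 lower than in epidermal cells (medians -1.72 over all genes and -0.67 over the members), and 3 higher and 22 lower than in B cells (-2.09 and -0.89). In each of these the members' median stayed above that of all genes. That had to follow from the TMM result, because leaving out the factors shifts all genes of a class nearly alike. Most genes were called in the fits against T and B cells with no scaling factors, as given in the section on processing. The member counts there therefore say little about the members. For erythroid against epidermal cells with no scaling factors the share of all genes called is not given, so that count is not read either. The pairs without erythroid cells kept their direction on both scales for epidermal against T cells and for T against B cells. Epidermal cells were higher than T cells for 1 member and lower for 27 (34.1% and 31.6% of all genes; medians -0.66 and -0.02), and T cells were higher than B cells for 25 and lower for 1 (19.8% and 18.1%; medians 0.89 and -0.02). Between epidermal and B cells 11 members were higher and 4 lower (33.6% and 31.0%; medians 0.13 and -0.05), or 3 and 7 with no scaling factors. Without intact 2 or intact 4, 3 and 6 were called higher. In all, 14105 genes were called in either direction without intact 2, against 15390 in the main fit. For the fits with no scaling factors or without intact 4 the share of all genes is not given for this pair.

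**Figure D2:**
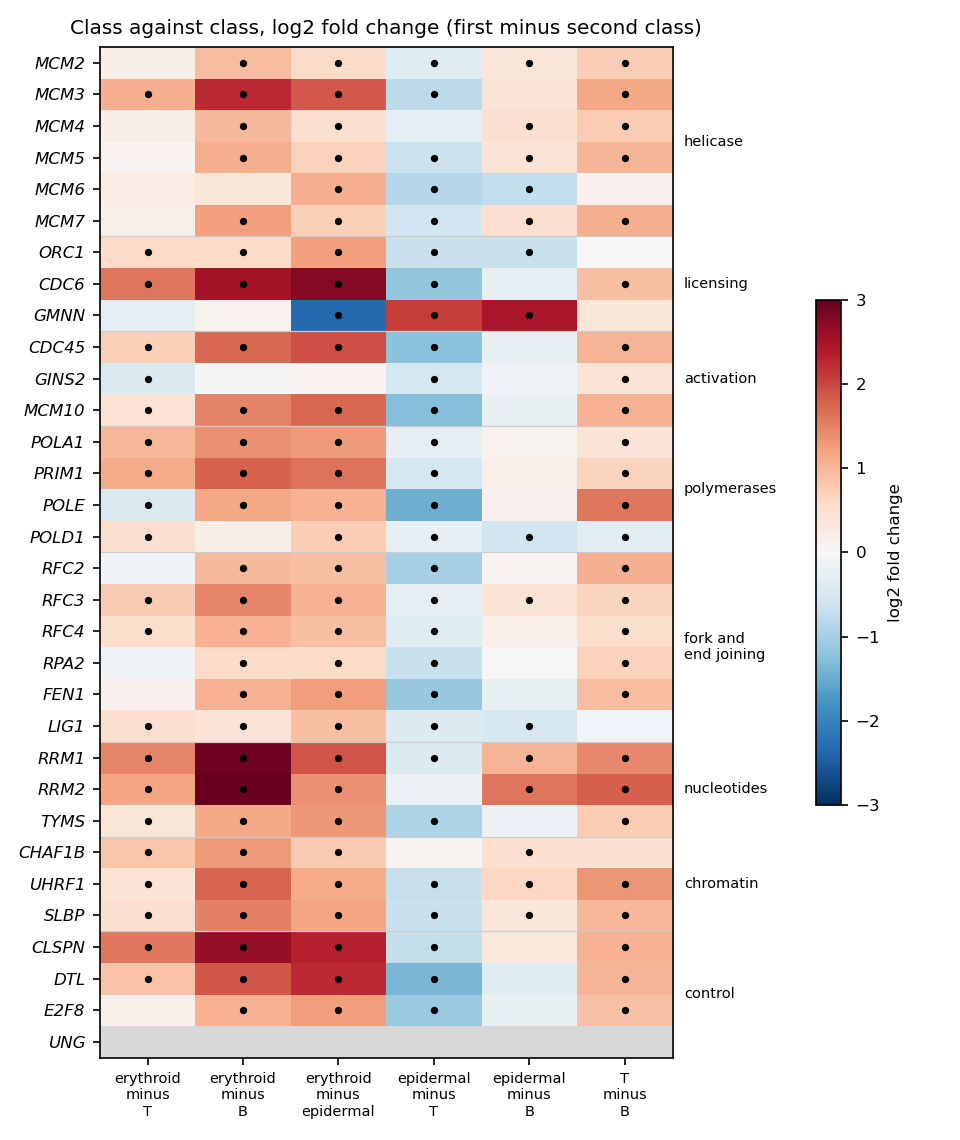
Heat map of the log2 difference between classes on the TMM scale, 1 row per gene grouped by role, 1 column per pair of classes; red is higher in the first-named class, blue lower, a dot marks an edgeR adjusted p under 0.05, and UNG (grey) was not tested. The erythroid columns are mostly red on this scale and turn mostly negative with no scaling factors; GMNN is blue in erythroid minus epidermal (-2.34) and red in epidermal minus T (2.08).

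Of the 6 subunits of the replicative helicase, MCM3 was higher in erythroid than in T cells on the TMM scale and the other 5 did not pass the test. MCM3, a subunit of the ring, had a lowest, median and highest level of 59.8, 110.2 and 204 CPM in erythroid cells, 16.6, 21.2 and 45.4 in epidermal, 35.5, 60.6 and 83.7 in T and 9.25, 21.4 and 47.8 in B cells. In each of the 7 samples its erythroid value was the highest of the 4. The difference was 1.07 ± 0.17 (SE, edgeR adjusted p = 1.2e-06) against T cells and 1.84 against epidermal cells. MCM2, MCM4, MCM5, MCM6 and MCM7 differed by 0.19, 0.21, 0.06, 0.23 and 0.15 between erythroid and T cells. MCM7, for example, averaged 75.1 ± 29.8 CPM in erythroid cells, 36.3 ± 11.2 in epidermal, 71.0 ± 19.6 in T and 29.5 ± 9.11 in B cells (SD, n = 7). On the TMM scale all 6 subunits were higher in erythroid than in epidermal cells, and all but MCM4 were lower in epidermal than in T cells. Per 1000000 of all UMIs, MCM2, MCM4, MCM5, MCM6 and MCM7 were lower in erythroid than in epidermal cells in all 7 samples. MCM3 was higher in 3 and lower in 4, with means of 27.5 CPM in erythroid, 26.7 in epidermal, 59.6 in T and 23.2 in B cells. MCM6 was sparse, at 3.66, 1.61, 3.37 and 2.97 CPM in the same order of classes, and 15.4% of its UMIs lay in a further gene model that went the other way between erythroid and B cells (-1.37).

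Of ORC1, CDC6 and their inhibitor GMNN, only GMNN was highest in epidermal cells. Of 12 other licensing genes tested on the TMM scale, ORC5, MCM8 and MCMBP were higher in epidermal than in T cells and 8 lower. Of all genes 34.1% were higher and 31.6% lower. Geminin, which binds the loading factor CDT1 and keeps origins from being licensed again, had a lowest, median and highest level of 13.1, 28.6 and 41.4 CPM in erythroid cells. Epidermal cells had 80.3, 124 and 142, T cells 27.6, 31.2 and 51.3 and B cells 12.9, 24.4 and 30.3 CPM. The epidermal range lay wholly above the ranges of the other 3 classes, and within each of the 7 samples the epidermal value was the highest. Epidermal cells were above T cells by 2.08 ± 0.17 (SE, edgeR adjusted p = 1.72e-12) and above B cells by 2.44 ± 0.20 (SE, edgeR adjusted p = 8.7e-13); erythroid minus epidermal cells gave -2.34 ± 0.18 (SE, edgeR adjusted p = 1.66e-13). With no scaling factors the same differences were 1.68, 2.20 and -4.15, in the same directions. CDC6, the ATPase that brings the MCM ring to ORC, ran the other way, with 9.08, 20.4 and 31.1 CPM in erythroid, 1.45, 2.35 and 4.32 in epidermal, 4.32, 5.72 and 11.3 in T and 0, 2.64 and 7.81 in B cells (lowest, median, highest). Erythroid minus T cells gave 1.60 ± 0.15 (SE, edgeR adjusted p = 6.71e-11), and epidermal minus T cells -1.15 ± 0.19 (SE, edgeR adjusted p = 2.26e-06). ORC1, the largest subunit of the origin recognition complex, averaged 32.0 ± 7.70, 10.7 ± 4.37, 22.6 ± 4.53 and 20.3 ± 8.26 CPM in erythroid, epidermal, T and B cells; between T and B cells the difference was 0.01 ± 0.14 (SE, edgeR adjusted p = 0.965).

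The helicase activators split. CDC45, which joins the MCM ring, averaged 18.0 ± 4.36 CPM in erythroid cells, 3.78 ± 1.44 in epidermal, 11.8 ± 3.06 in T and 5.01 ± 1.67 in B cells, and MCM10 kept the same order of the highest pair at 5.82 and 4.68 CPM in erythroid and T cells. GINS2, a subunit of the GINS complex, had 6.18, 8.59 and 13.4 CPM in erythroid cells (lowest, median, highest) against 10.6, 12.1 and 16.6 in T cells, its highest class. Erythroid cells were lower than T cells in 6 of 7 samples, with a difference of -0.43 ± 0.12 (SE, edgeR adjusted p = 0.00283). Between erythroid and epidermal cells GINS2 differed by 0.09 ± 0.13 (SE, edgeR adjusted p = 0.577), the only tested member besides GMNN that was not called higher in erythroid cells there. With 2 more markers asked of each cell, the GINS2 and POLE differences between erythroid and T cells were -0.20 and -0.24 and neither was called.

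Polymerase genes did not share 1 pattern. POLE, the leading-strand polymerase, had 10.6, 17.5 and 27.6 CPM in erythroid cells (lowest, median, highest), 4.67, 6.53 and 8.76 in epidermal, 16.9, 24.5 and 32.5 in T and 5.55, 7.16 and 11.7 in B cells. T cells were the highest class in every sample, and erythroid minus T cells gave -0.43 ± 0.12 (SE, edgeR adjusted p = 0.00191). PRIM1, the catalytic subunit of primase, ran opposite to it, with 33.4, 51.6 and 71.7 CPM in erythroid and 18.4, 23.5 and 34.1 in T cells, and was higher in erythroid cells by 1.10 ± 0.11 (SE, edgeR adjusted p = 2.65e-10). POLA1, the polymerase that extends the primers, differed likewise by 1.00 ± 0.12 (SE, edgeR adjusted p = 5.8e-09), and its second gene model, with 27.2% of its UMIs, moved in the same direction. POLD1, the lagging-strand polymerase, was the only member called lower in T than in B cells: it had 56.8, 70.7 and 112 CPM in T and 58.4, 83.6 and 132 in B cells, a difference of -0.32 ± 0.11 (SE, edgeR adjusted p = 0.0176), which was not called with no scaling factors (-0.17), with haemoglobin left out (-0.22), with no filter on low counts (-0.04), without contra 4 (-0.30) or without contra 5 (-0.27). T cells were lower than B cells in 4 of 7 samples, and the ranges overlap.

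Of the clamp loader and the proteins that follow the fork, 3 of 6 were higher in erythroid than in T cells on the TMM scale. RFC3 and RFC4, loader subunits, and LIG1 were higher in erythroid cells, the first pair by 0.78 and 0.54, and a second RFC3 model with 40.8% of its UMIs went the same way, whereas RFC2 (-0.10), the single-strand binding subunit RPA2 (-0.10) and the flap nuclease FEN1 (0.12) did not pass the test. All 6 genes of this group were lower in epidermal than in T cells; RFC2 averaged 15.5 ± 3.73 CPM in epidermal and 40.0 ± 7.75 in T cells. LIG1, the ligase that seals the lagging strand, averaged 93.6 ± 18.0, 40.5 ± 9.67, 70.3 ± 14.5 and 69.3 ± 24.9 CPM in erythroid, epidermal, T and B cells, and T and B cells differed by -0.09 ± 0.09 (SE, edgeR adjusted p = 0.49). FEN1 had 5.69% of its UMIs in a second gene model, which was lower in erythroid than in epidermal, T and B cells (-1.32, -1.63 and -1.32); whether the models are copies of 1 gene was not examined. PCNA.L averaged 206 ± 55.7, 64.5 ± 20.8, 169 ± 50.1 and 70.4 ± 26.4 CPM in the 4 classes.

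All 3 genes of nucleotide supply were higher in erythroid than in epidermal, T and B cells on the TMM scale. RRM1, the large subunit of ribonucleotide reductase, the enzyme that makes deoxyribonucleotides, had 137, 250.1 and 469 CPM in erythroid cells (lowest, median, highest), 33.6, 56.1 and 77.5 in epidermal, 59.9, 87.7 and 167 in T and 17.3, 31.6 and 43.9 in B cells. Erythroid cells were the highest class for it in all 7 samples. Their excess was 1.47 ± 0.14 (SE, edgeR adjusted p = 1e-10) over T cells and 2.91 ± 0.16 (SE, edgeR adjusted p = 1.38e-16) over B cells. Counted against all UMIs, its mean CPM was 62.5 in erythroid, 56.7 in epidermal, 102 in T and 31.6 in B cells, with T cells the highest. Its small subunit RRM2 had 42.3, 91.6 and 115 CPM in erythroid and 1.85, 9.87 and 25.4 in B cells, a difference of 2.97 ± 0.19 (SE, edgeR adjusted p = 7.43e-15). RRM2 in epidermal cells, at 26.9 ± 8.34 CPM, was not called against T cells, at 40.1 ± 15.0 CPM (-0.18 ± 0.15 (SE), edgeR adjusted p = 0.311). TYMS, thymidylate synthase, was higher in erythroid than in T cells by a smaller amount (0.36 ± 0.12 (SE), edgeR adjusted p = 0.00763).

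Of the chromatin and control genes, 5 of the 6 tested were higher in erythroid than in T cells on the TMM scale. CLSPN, claspin, which relays fork stalling to the checkpoint kinase, had 25.5, 59.7 and 104 CPM in erythroid cells (lowest, median, highest), 5.15, 9.20 and 15.4 in epidermal, 11.8, 18.0 and 31.7 in T and 0.617, 7.26 and 18.5 in B cells. Erythroid minus T cells gave 1.58 ± 0.17 (SE, edgeR adjusted p = 8.21e-10). DTL, which directs the degradation of CDT1 on clamp-bound DNA, and CHAF1B, a subunit of the histone loader CAF-1, were higher in erythroid than in T cells by 0.86 and 0.84, while E2F8, a repressor of E2F targets, differed by 0.15 and did not pass the test. SLBP, which binds histone transcripts, averaged 94.8 ± 31.8 CPM in erythroid, 33.4 ± 6.29 in epidermal, 70.8 ± 22.0 in T and 30.1 ± 7.63 in B cells. UHRF1, which recruits the maintenance DNA methyltransferase, averaged 66.5 ± 24.3, 25.7 ± 11.6, 53.3 ± 16.5 and 18.4 ± 8.56 CPM. UNG, a uracil glycosylase, stayed under 0.5 CPM in the mean of every class, from 0.137 in B to 0.478 in erythroid cells.

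On the non-haemoglobin scale the lowest mean was in epidermal cells for 17 members and in B cells for 15, and these classes differed from each other gene by gene; per 1000000 of all UMIs erythroid cells were lowest for 25. On the TMM scale RRM1 and RRM2 were higher in epidermal than in B cells, by 1.03 ± 0.16 (SE, edgeR adjusted p = 1.49e-06) and 1.61. So were MCM2, MCM4, MCM5, MCM7, RFC3, SLBP, UHRF1 and CHAF1B, by 0.35 (SLBP) to 0.63 (UHRF1). POLD1, LIG1, ORC1 and MCM6 were lower in epidermal than in B cells on that scale, with differences of -0.57, -0.49, -0.66 and -0.73. By sample on the non-haemoglobin scale, RRM1, RRM2 and RFC3 were higher in all 7. MCM2, MCM4, MCM5 and MCM7 were higher in 5, SLBP and CHAF1B in 4 and UHRF1 in 3 of 7. POLD1, LIG1 and ORC1 were lower in all 7 and MCM6 in 6. Without intact 2 only 3 members were called higher, in a fit that called 14105 genes in either direction. The share of all genes called higher in that fit is not given. ORC1 had 3.65, 11.5 and 14.8 CPM in epidermal and 12.3, 17.8 and 36.1 in B cells (lowest, median, highest), and the ranges overlap. Among the members, T minus B cells was largest for RRM2 and POLE, at 1.79 ± 0.20 (SE, edgeR adjusted p = 4.99e-09) and 1.59 ± 0.16 (SE, edgeR adjusted p = 5.32e-10). LIG1, ORC1, MCM6, GMNN and CHAF1B were the members not called in either direction between T and B cells.

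Shares of cells with a UMI also turned with the haemoglobin scale. With haemoglobin removed and each cell thinned to 1000 UMIs, 23 members were seen in the largest share of erythroid cells, 6 of T, 2 of B and 1 of epidermal cells; with haemoglobin kept and 3000 UMIs per cell, erythroid cells led for 0 and T cells for 26. RRM1 had a UMI in 13.9% of erythroid, 5.06% of epidermal, 6.13% of T and 2.09% of B cells without haemoglobin (means of 7 samples), and in 11.1%, 12.8%, 14.4% and 5.94% with it. GMNN had its largest share in epidermal cells on both counts: 2.05% of erythroid, 10.3% of epidermal, 2.66% of T and 2.86% of B cells without haemoglobin, and 1.50%, 25.5%, 6.98% and 5.53% with it. In single samples the epidermal share of GMNN on the second count ran from 18.7% to 32.1%, above the highest T cell share of 9.71%.

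Counted per cell, members were sparse in every class. When every cell was thinned to 3000 UMIs, haemoglobin included, the share with at least 5 of the 32 members averaged 2.42% in erythroid, 6.60% in epidermal, 13.6% in T and 4.23% in B cells. With haemoglobin UMIs removed first and each cell thinned to 1000, the shares were 4.41% in erythroid, 0.236% in epidermal, 1.63% in T and 0.571% in B cells, so erythroid cells were the lowest class on the first count and the highest on the second. Unthinned, at the median depths given above, they were 31.8%, 70.9%, 50.5% and 28.3%. No class here is known to lack replication transcripts, so a share cannot be read against a class that should be empty, and the 2C gate can remove cells in S phase from every class. With haemoglobin removed, the erythroid share was 1.42, 4.72, 5.08 and 9.79% in contra 1, 2, 4 and 5 and 2.99, 2.91 and 3.96% in intact 1, 2 and 4. The T share was 0.896, 1.40, 1.52 and 2.95% in the contra and 0.816, 1.44 and 2.37% in the intact samples. Contra 1 was the lowest erythroid sample and contra 5 the highest, so the contra values lie on both sides of the intact ones. In T cells the groups overlap as well. The epidermal share ran from 0 to 0.484% in contra and from 0 to 0.747% in intact samples. At 3000 UMIs it ran from 4.12% to 7.36% and from 4.26% to 12.5%, which overlap. Unthinned it ran from 62.4% to 68.3% and from 71.8% to 81.9%, without overlap, where the part of depth was not tested.

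**Figure D3:**
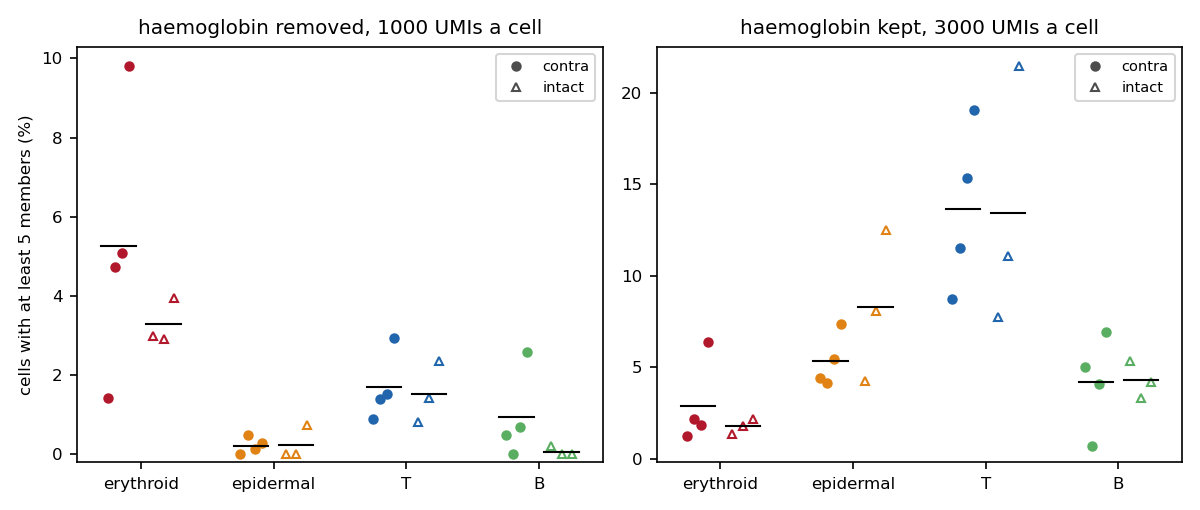
Percent of cells with at least 5 members in each sample, contra (filled circles) left of intact (open triangles) in each class, black lines at the group means, with haemoglobin removed and 1000 UMIs per cell (left panel) or kept and 3000 UMIs per cell (right panel). Contra 5 is the highest erythroid sample in both panels (9.79% and 6.37%), and the class with the highest shares changes between panels.

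The variance of the members' UMIs over their mean was largest in erythroid cells. With haemoglobin removed and 1000 UMIs per cell, 52.4% of erythroid cells held 0 UMIs of any member, against 54.7%, 55.6% and 67.0% of epidermal, T and B cells, yet the variance of the members' UMIs over their mean was 2.65 in erythroid cells and 1.35, 1.91 and 1.53 in epidermal, T and B cells. A ratio of 1 would be the spread of counting alone. For the same relative spread between cells the ratio rises with the mean level. That level was highest in erythroid cells on this scale, at 1585 CPM summed over the members against 665, 1096 and 592 in epidermal, T and B cells. The part of the level in the ratio was not tested. MCM3 was found in 1.48% (1.21 to 1.79) of erythroid cells with 0 other members and in 26.7% (24.5 to 28.9) of those with at least 3 (exact binomial 95% intervals, counting error only). It was found in 1.75% and 17.0% of such T cells. RRM1 was likewise more frequent in erythroid cells with other members (6.02% with 0 others, 16.3% with 1 or 2, 39.3% with at least 3). In epidermal cells both rose too, MCM3 from 1.48% to 3.11% and 9.16% and RRM1 from 4.54% to 5.76% and 13.5%. MCM3 was found in 0.738% of B cells with 0 others and in 10.6% of only 47 with at least 3. POLD1 and LIG1 differed less with the other members: in T cells POLD1 was found in 5.93% and 10.1%, and LIG1 in 5.45% and 9.01%, of cells with 0 and with at least 3 others. In epidermal cells POLD1, like GMNN below, differed little, with 5.14%, 6.23% and 5.66% at 0, 1 or 2 and at least 3 others. LIG1 had 3.99%, 4.52% and 7.43% of epidermal cells in the same order. GMNN differed by class. In epidermal cells it was found in 11.2% (10.3 to 12.2) of cells with 0 other members, 10.1% (8.86 to 11.3) of those with 1 or 2 and 10.3% (6.80 to 14.9) of those with at least 3, with intervals that overlap. In erythroid cells the same shares were 0.703%, 2.25% and 5.95%, and in T cells 1.64%, 2.63% and 9.72%. Cells share libraries and non-haemoglobin depth was fixed, so these shares are a description without a test.

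**Figure D4:**
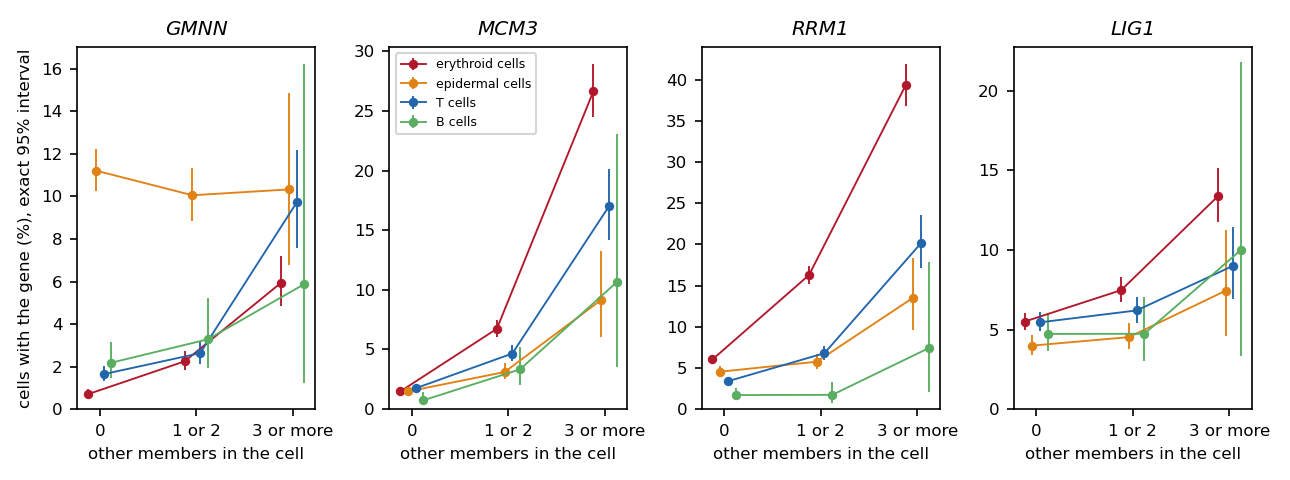
Share of cells with a UMI of GMNN, MCM3, RRM1 or LIG1 (percent, exact binomial 95% intervals) by how many other members the cell held (0, 1 or 2, 3 or more), by class, with haemoglobin removed and 1000 UMIs per cell. MCM3 and RRM1 points are higher with 3 or more other members than with 0 in every class, with wide intervals in B cells. GMNN in epidermal cells stays between 10.1% and 11.2%.

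Within erythroid cells the members' level differed with the haemoglobin share. Cells were split at haemoglobin shares of 60%, 70% and 80% of their UMIs, which gave 1165, 1468, 5543 and 5049 cells, and the level summed over the 32 members was 896, 1868, 1809 and 911 CPM from the lowest to the highest share. RRM1 had 108, 333, 313 and 126 CPM, MCM3 44.3, 118, 139.8 and 71.3 and CLSPN 28.1, 74.2, 67.9 and 23.2 CPM in the same order. All 3 were lower at both ends than in the middle, and so was the share of cells with at least 5 members (1.12%, 4.43%, 6.35% and 2.04%). POLD1 varied least of the genes named here, with 95.3, 116, 108 and 77.1 CPM. The level is expressed per non-haemoglobin UMI, a count that also enters the haemoglobin share by which the cells were split. Depth differed too, with medians of 9763, 16737, 29478 and 31102 UMIs, and of 4823, 5743.5, 6897 and 5090 non-haemoglobin UMIs. The part of either in the pattern was not tested. The split of cells differed between samples: 59.6% of the erythroid cells of contra 5 lay between 70% and 80% haemoglobin, against 36.6% to 46.2% in contra 1, 2 and 4 and 29.5% to 47.8% in the intact samples.

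The second comparison asks whether the limbs called contra differ from intact ones in these genes. In each class, 0 of the tested members and 0 of all genes passed the edgeR quasi-likelihood test with Benjamini-Hochberg adjustment (0% of genes called in erythroid, epidermal, T and B cells). At an unadjusted p under 0.05, 4.39% of all genes in erythroid, 8.75% in epidermal, 1.72% in T and 1.32% in B cells lay below it, with 0 members in erythroid, T and B cells and 9 in epidermal cells. DESeq2 called 22 genes in erythroid and 60 in epidermal cells, with 0 members among them.

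In erythroid cells all 31 tested members had a positive difference, and none passed the edgeR test. The summed member level was 921, 1657, 1940.1 and 2410.5 CPM in contra 1, 2, 4 and 5, against 1229.8, 1288 and 1647 in intact 1, 2 and 4, means of 1732 ± 624 and 1388 ± 226 (SD). Contra 1 was below every intact sample and contra 2, 4 and 5 above every one, so the groups overlap. MCM3 had 59.8, 141, 146 and 204 CPM in the contra and 78.4, 93.6 and 110.2 in the intact samples. Its difference was 0.45 ± 0.29 (SE, edgeR adjusted p = 0.965). POLE had 10.6, 19.1, 21.2 and 27.6 CPM in contra against 11.8, 14.6 and 17.5 in intact samples, a difference of 0.33 ± 0.24 (SE, edgeR adjusted p = 0.965). For CDC45 the values were 13.6, 18.6, 20.9 and 25.6 in contra and 14.2, 14.3 and 18.6 in intact samples (0.24). The members' median difference of 0.23, beside 0.00 over all genes, was 0.05 without contra 5, 0.42 without contra 1 and 0.02 with the replicate number as a block, a fit in which contra 5 has no partner. All members were read from the same 7 libraries, so the number with 1 sign is not a count of separate observations. The erythroid cells of contra 5 were split differently by haemoglobin share, as given above. Within every range of haemoglobin share contra 5 also had the highest summed level of the 7 samples, at 1920, 2890, 2622 and 1330 CPM. Contra 1 had the lowest in all but the highest range. The part of the haemoglobin shares in the result was not tested.

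In epidermal cells 29 of 31 members had a negative difference, with a median of -0.37 beside -0.01 over all genes, and none passed the edgeR test. The summed member level averaged 617 ± 89.6 CPM in contra and 729 ± 163 in intact samples (SD), with ranges of 511 to 728 and 558 to 884 that overlap. RPA2 had 9.43, 12.4, 12.8 and 18.3 CPM in contra 1, 2, 4 and 5 against 24.3, 17.7 and 25.1 in intact 1, 2 and 4. Only contra 5 reached the lowest intact value, and the difference was -0.76 ± 0.21 (SE, edgeR adjusted p = 0.469). RFC2 had 11.1, 12.7, 12.0 and 16.3 CPM in contra and 15.9, 19.8 and 20.4 in intact samples, a difference of -0.51 ± 0.15 (SE, edgeR adjusted p = 0.477). FEN1 had 10.0, 10.5, 11.8 and 19.0 CPM in contra and 18.2, 21.5 and 21.3 in intact samples (-0.72 ± 0.22 (SE), edgeR adjusted p = 0.498). Contra 5 was the highest contra sample for all 3 genes. On the TMM scale the groups did not overlap for 2 of 31 members, RFC2 and FEN1, both lower in contra samples, where 4.90% of all genes were lower without overlap. On the non-haemoglobin scale contra 5 lay above intact 1 for both. The other 6 members with an unadjusted p under 0.05 were MCM6, CLSPN, CDC6, RRM2, MCM10 and PRIM1, all lower, with differences between -1.09 (MCM6) and -0.37 (PRIM1). GMNN was 1 of the 2 with a positive difference (0.39), beside CHAF1B (0.06). It had 129, 141, 142 and 84.4 CPM in contra and 80.3, 84.4 and 124 in intact samples, which overlap. Replicate numbers were read as pairs in epidermal cells, though the fit above used the group alone. With the number as a block the median was -0.50 and 0 members passed, the smallest adjusted p in edgeR being 0.0582. Without intact 4 the median was -0.18. Intact 1 and 2 rest on 188 and 136 epidermal cells.

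T and B cells showed no clear lean to 1 side in the main fits, which used the group alone. With the replicate number as a block the members' median was negative in both classes, as given in the section on processing. In T cells 14 members had a positive and 17 a negative difference (median -0.01), and the summed level was 814, 1084, 1185 and 1333 CPM in contra and 783, 1007 and 1464 in intact samples, with intact 4 the highest and intact 1 the lowest of the 7. The 3 members with the smallest p were CHAF1B, at -0.22 ± 0.23 (SE, edgeR adjusted p = 1), CDC6, at 0.23 ± 0.32, and MCM3, at 0.18 ± 0.25. CDC6 had 4.32, 5.72, 8.49 and 11.3 CPM in contra and 4.60, 5.04 and 8.58 in intact T cells, and the groups overlap. In B cells 26 members could be tested, 16 with a positive and 10 with a negative difference (median 0.02). MCM5 had 17.3, 15.4, 23.7 and 18.5 CPM in contra and 23.9, 21.3 and 23.0 in intact B cells (-0.33 ± 0.22 (SE), edgeR adjusted p = 1). MCM2 differed by -0.37 ± 0.25 and GINS2 by 0.34 ± 0.25. B cells numbered 116 to 448 per sample, which limits these values.

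**Figure D5:**
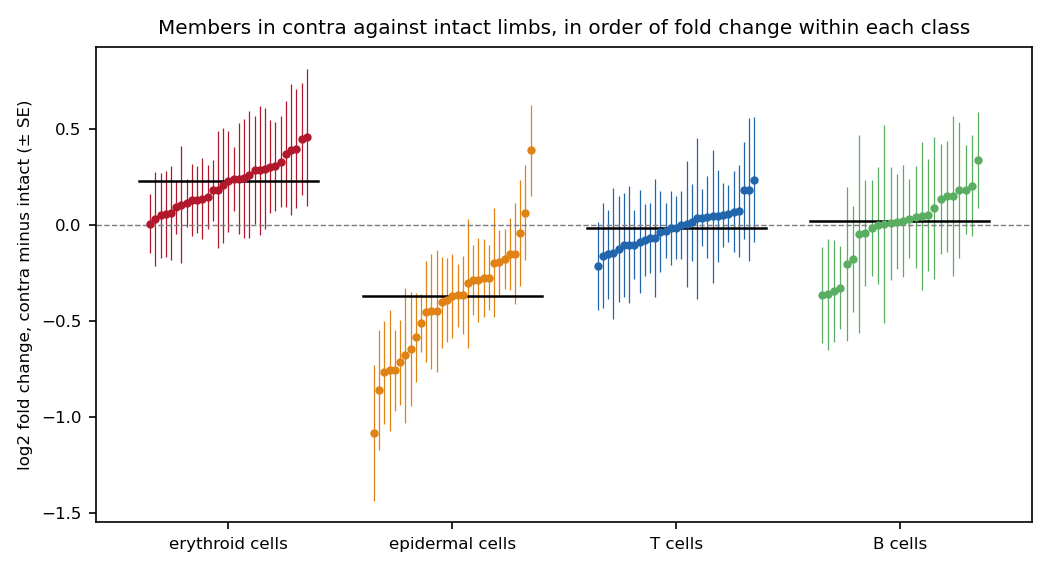
Log2 difference, contra minus intact, of each tested member in each class (points, ± SE bars, ordered by size within the class), with a black line at the members' median. All erythroid points lie above 0 (median 0.23) and most epidermal points below 0 (median -0.37); no member passed the edgeR test in any class.

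The contra effect in epidermal cells was set against that in the other classes in 1 joint fit. The median difference of effects over the members was -0.51 relative to erythroid cells (29 of 31 negative), -0.33 relative to T cells and -0.29 relative to B cells, and 0 members were called in any of the 3, where 0.0168%, 0% and 0% of all genes were called. RPA2 had the smallest p against erythroid cells, with a difference of effects of -0.78 ± 0.22 (SE, edgeR adjusted p = 0.212). CDC6 had it against T cells (-1.11 ± 0.33 (SE), edgeR adjusted p = 0.656). Without contra 1, 8 members and 563 genes were called in the epidermal-minus-erythroid comparison, all 8 members lower, so this count rests on whether that sample is used.

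Other genes of the replication machinery were counted on the TMM scale for comparison; 69 were listed, 63 found and 61 tested. Between erythroid and T cells 34 were higher and 9 lower (median 0.30), between erythroid and epidermal cells 43 and 9 (0.82), between epidermal and T cells 9 and 38 (-0.54), and between T and B cells 37 and 0 (0.47), beside the shares of all genes given above. With no scaling factors the erythroid counts turned as those of the members did (1 higher and 60 lower than in T cells, 4 and 48 than in epidermal cells), while epidermal minus T cells gave 4 and 49 and T minus B cells 44 and 0. The shares of all genes given above are those of the TMM fits alone. Contra against intact gave 0 in every class. DUT, which breaks down dUTP, averaged 270.0, 124, 237 and 141 CPM in erythroid, epidermal, T and B cells. DNMT1, the maintenance DNA methyltransferase, averaged 259.7, 137, 165 and 126 CPM. NASP, a histone chaperone, averaged 94.1, 102, 135 and 55.7 CPM in the same order and was lower in erythroid than in T cells (-0.46) and in epidermal cells (-0.48), both past the edgeR threshold. CHAF1A, partner of CHAF1B in CAF-1, averaged 78.4, 29.6, 66.3 and 48.8 CPM and CHTF18, part of an alternative clamp loader, 98.9, 44.0, 91.9 and 89.8 CPM.

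Mitosis genes and members met in the same cells in erythroid and T cells. TOP2A, which untangles replicated chromosomes, had a UMI in 26.5% of 533 erythroid cells with at least 5 members and in 1.86% of 6926 with 0, and in 19.0% of 142 and 2.04% of 5394 T cells of the same kinds. CDK1, the mitotic kinase, was found in 9.01% and 0.217% of those erythroid cells. Only 23 epidermal and 7 B cells held at least 5 members, too few for such shares. On the TMM scale TOP2A was higher in erythroid than in T cells by 1.01, which turned to -1.20 with no scaling factors; epidermal minus T cells gave -2.02 and -2.42.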

How the data were processed

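The deposited files hold raw UMI counts from 10x 3′ single-cell RNA-seq of 7 limb samples, 61014 gene models by 35013 cells; kallisto 0.48.0 and Seurat 4.2.0 are named per the submitters' processing notes, while for the build and annotation the sources used here give no name. The files pair 31456 gene models with a symbol, and 0 of the model identifiers occur in the RefSeq gene table, so names were taken from the files. A symbol with several models was summed for levels and tested on the model with the most UMIs. The members, gene lists and tests were chosen with earlier results of these data known.

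Scrublet in scanpy 1.11.5 (expected rate 5%, score over 0.25) removed 439 cells (1.25%). Cells were classed without clustering by markers with a UMI: erythroid cells needed haemoglobin at 20% of their UMIs or more and 2 of 5 other markers, T cells 3 of 8, B cells 3 of 6 and epidermal cells 8 of 18. Cells with 3 of 6 macrophage or 4 of 7 fibroblast markers, or meeting more than 1 gate (1554 cells), were left out. The limits were set after the marker distributions were seen; at their minimum lay 764 T, 443 B, 25 epidermal and 1526 erythroid cells. Counts were summed per sample and class (at least 20 cells each).

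Contra and intact samples were compared within each class by edgeR 4.0.16 (TMM factors, filterByExpr, quasi-likelihood test, Benjamini-Hochberg adjusted p under 0.05; R 4.3.3), and classes in a joint edgeR fit with the sample as a block; both were tested on simulated data. Alternatives were DESeq2 1.42.0 and its size factors, no filter, haemoglobin left out, doublets kept, stricter gates, no scaling factors, the replicate number as a block and each sample left out. Over genes, same-numbered contra and intact samples (1, 2 and 4) had deviations from their group means that correlated at 0.25, 0.16 and 0.066 in erythroid, 0.30, 0.35 and 0.17 in epidermal, 0.45, 0.56 and 0.25 in T and 0.48, 0.53 and 0.15 in B cells. Each contra sample matched its own number best in erythroid, epidermal and T cells, and all but contra 4 did in B cells. The numbers were read as pairs in the last 3 classes and not in erythroid cells, where the correlation was lowest for each number. By best match alone erythroid cells would count as paired too, and contra 4 in B cells would not. The main fits nevertheless used the group alone in every class, so their differences, SEs and p-values ignore any pairing. The number as a block was only an alternative. Every member was described; contra against intact named up to 3 members with the smallest unadjusted p per class, and other genes the 5 with the highest summed CPM. Binomial intervals are exact (95%) and, like all UMI shares, cover counting error only.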

Additional observations from a re-analysis of the deposited data

How the results depend on the processing

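Of the summary values recomputed, 530 stayed within 1.5 times or within the spread between replicates and 74 moved. Named genes here are the 3 members with the smallest p per class, contra against intact, and GMNN, POLD1, GINS2 and POLE between classes. Of their values, 242 kept their direction and side of the threshold, 7 lost the call and 2 changed direction. Other named differences, such as MCM3 and RRM1 between erythroid and T cells, were not counted. With no scaling factors both turned negative, as all 31 members were lower there. Where a value moved, the cause was not tested. Genes called contra against intact, 0 in each class, were 481, 402, 152 and 55 in erythroid, epidermal, T and B cells with no filter, and 22 and 60 in erythroid and epidermal cells by DESeq2. With the replicate number as a block they were 1, 18 and 6 in erythroid, epidermal and B cells, with 0 members called in any class; the medians over the members were 0.02, -0.50, -0.09 and -0.18 in erythroid, epidermal, T and B cells. Leaving out 1 sample gave 0 to 9 genes in erythroid, 0 to 1 in T and 0 to 5 in B cells. CHAF1B in T cells ran from -0.35 to 0.0040 (without intact 4), and MCM3 in T cells from -0.013 (without intact 1) to 0.47. With no scaling factors, chosen after seeing the data, member calls were 0 higher and 31 lower for erythroid minus T cells (22900 genes called in all), 3 and 22 for erythroid minus B (21465 genes), 3 and 23 for erythroid minus epidermal and 3 and 7 for epidermal minus B cells. For the last 2 pairs the number of all genes called is not given. Epidermal minus B gave 19 and 0 with no filter and 3 to 12 higher without 1 sample. The 1 member lower in T than in B cells was lost (0) with no filter, haemoglobin left out or no scaling factors, and the count ran from 0 (without contra 4 or contra 5) to 1 without 1 sample; the 2 lower in erythroid than in T cells were lost (0) with 2 more markers asked of each cell, also chosen after seeing the data. The epidermal-minus-erythroid difference of effects had 2 members lower with no filter and 0 to 8 without 1 sample; genes called there were 7 with DESeq2 size factors, 308 with no filter, 7 with 2 more markers and 0 to 563 without 1 sample. Against T cells they were 104 with no filter, 2 with 2 more markers and 0 to 87 without 1 sample, and against B cells 45 with no filter and 0 to 17. The median member was seen in 2.05%, 3.73%, 6.14% and 3.12% of erythroid, epidermal, T and B cells at 3000 UMIs. Unthinned this was 15.7%, 23.7%, 22.2% and 11.5%, and with haemoglobin removed 1.33%, 2.20% and 0.986% in epidermal, T and B cells. At least 3 members were held by 10.3%, 23.5%, 29.8% and 15.0% of cells at 3000 UMIs, and at least 5 by 31.8%, 70.9%, 50.5% and 28.3% unthinned and 4.41%, 0.236%, 1.63% and 0.571% with haemoglobin removed. A planned gate that allows no marker of another class left too few cells and was not run. Depth limits B cells most, with 116 to 448 cells per sample and 26 testable members.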

Other observations

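Genes of mitosis and of cell cycle exit were measured in the same sums. Of 8 tested mitosis genes, 6 were called lower and 0 higher in epidermal than in T cells (edgeR quasi-likelihood test, adjusted p under 0.05, median -0.80). Of all genes 31.6% were lower and 34.1% higher. T cells were higher than B cells for 7, against 19.8% of all genes. Erythroid minus T cells gave 6 higher and 1 lower, against 31.9% and 30.2% of all genes. With no scaling factors 8 were lower in epidermal than in T cells and 8 higher in T than in B cells, without a share of all genes to set beside them. Erythroid minus T cells then gave 0 and 8, in a fit where most genes were called, so this count says little about mitosis genes. The 1 lower on the TMM scale was the gene model with the symbol MKI67, the proliferation antigen Ki-67, a sparse model with 384 UMIs in erythroid cells, where the model with the symbol MKI67.S, not counted in the list, had 57832. The models ran opposite ways between erythroid and T cells on that scale. MKI67.S averaged 717 ± 265.5 CPM in erythroid, 161 ± 23.6 in epidermal, 379 ± 100.1 in T and 186 ± 22.0 in B cells (SD, n = 7), and erythroid minus T cells was 0.99 ± 0.12 (SE, edgeR adjusted p = 1.81e-08), or -1.22 with no scaling factors, as for TOP2A. MKI67 averaged 4.59 ± 2.08 CPM in erythroid and 18.4 ± 2.97 in T cells, with a difference of -1.94 ± 0.15 (SE, edgeR adjusted p = 5.43e-13), or -4.16 with no scaling factors. Whether these models are copies of 1 gene was not examined.

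Of the cell cycle inhibitors, CDKN2C, which binds CDK4 and CDK6, averaged 91.6 ± 26.1 CPM in erythroid, 6.44 ± 2.10 in epidermal, 23.7 ± 6.25 in T and 10.6 ± 3.86 in B cells. Erythroid minus epidermal cells was 3.58 ± 0.14 (SE, edgeR adjusted p = 4.26e-21), and 1.78 with no scaling factors; erythroid minus T cells was 2.02, and -0.18 with no scaling factors. CDKN1A, the p53 target that inhibits CDK2, had its highest mean in epidermal cells, at 25.6 ± 17.5 CPM against 14.3 ± 3.46 in erythroid, 5.48 ± 1.43 in T and 1.24 ± 1.76 in B cells. Epidermal minus T cells was 2.46 ± 0.23 (SE, edgeR adjusted p = 2.91e-11), and 2.07 with no scaling factors. GMNN was thus not the only cell cycle gene of these lists that was higher in epidermal than in T cells on both scales. These genes were named after their values were seen.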
